A study of Mus musculus with 23 samples.

Results

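The transcripts described here are 10 genes of collagen and fibroblast-type extracellular matrix, followed through monocytes and macrophages from mice that carried, or did not carry, a subcutaneous hydrogel of poly(ethylene glycol) (PEG). They are the fibrillar collagen chains Col1a1, Col1a2 and Col3a1, the microfibrillar collagen chain Col6a1, the small proteoglycans Dcn and Lum, the matricellular protein Sparc, the microfibril protein Mfap5, fibronectin (Fn1) and the peptidase inhibitor Pi16. They were taken by gene symbol from 47729 gene entries, where all 10 were found, and all 10 were among the 16260 genes that passed the filter on low counts. They were chosen by their measured levels in these libraries, above all in the controls and in day 2 macrophages. Any comparison that uses a control library or the day 2 macrophages is therefore given for these genes as a description with no test.

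Tissue meets such a synthetic, water-swollen implant with inflammation and then a fibrous capsule, together called the foreign body response. The mice were C57BL/6J, and the subcutaneous tissue, together with any hydrogel, was digested with the enzyme blend Liberase TM before sorting. Both cell types were sorted as Cx3cr1-positive, the macrophages as Ly6C-low cells and the monocytes as Ly6C-high cells. The 8 groups pair each cell type with no implant (controls) or with an implant of 2, 14 or 28 days. Each has n = 3 biological replicates, apart from the control macrophages with n = 2. No source used here gives the ages of the mice or says whether any were pooled. The p-values below therefore measure the spread between these replicates as deposited.

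Collagens are secreted as chains that assemble in trios, and types I and III form the fibrils of skin, scar and implant capsules. Decorin (Dcn) and lumican (Lum) bind those fibrils, Sparc binds collagen and is needed for its normal deposition, Mfap5 sits on elastic microfibrils, and fibronectin is the early scaffold on which collagen is laid. Fibroblasts are the main makers of the collagens, Dcn, Lum and Mfap5 in skin, whereas macrophages are known to make fibronectin themselves. In bulk libraries such as these, fewer cells of a type and less RNA per cell cannot be told apart.

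RefSeq promoter entries (GRCm38.p6) were found for 5 of the 10 genes. For 3 of these a stretch of at least 100 bases lay upstream of the RefSeq start and outside every annotated exon, and it is shown because the levels of these collagen genes were correlated across the libraries. Capitals mark matches, on either strand, to the TATA core (TATAA), the CCAAT box (CCAAT), the GC box (GGGCGG) and a SMAD-type element (CAGACA). The Col3a1 stretch is chr1:45311288-45311537 on the plus strand, the Col1a2 stretch is chr6:4505370-4505492 on the plus strand, and the Col6a1 stretch is chr10:76726169-76726294 on the minus strand. The first and last of these lie just before the gene in the annotation that also gave the positions below, whereas the Col1a2 stretch lies inside its gene there, between exons and 125 bases before the RefSeq start.
Col3a1: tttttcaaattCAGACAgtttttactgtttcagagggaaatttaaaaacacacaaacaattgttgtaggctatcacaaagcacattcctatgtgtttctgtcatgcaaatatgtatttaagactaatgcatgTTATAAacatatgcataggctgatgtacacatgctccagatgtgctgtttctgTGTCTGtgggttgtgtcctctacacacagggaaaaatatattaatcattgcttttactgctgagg
Col1a2: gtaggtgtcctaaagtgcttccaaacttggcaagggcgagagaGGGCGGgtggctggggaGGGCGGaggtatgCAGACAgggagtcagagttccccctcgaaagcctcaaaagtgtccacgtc
Col6a1: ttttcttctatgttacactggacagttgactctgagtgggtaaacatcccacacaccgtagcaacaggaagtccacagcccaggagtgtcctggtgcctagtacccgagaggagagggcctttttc
The Col3a1 stretch held CAGACA at 239 and, on the other strand, 65 bases before the start, and TATAA at 118 and 117 bases on opposite strands, which overlap. Over the same 250 bases, 17.1% of 32851 promoters held CAGACA and 22.8% held TATAA. The Col1a2 stretch held GGGCGG at 205 and 188 bases and CAGACA at 175 bases before the start, which 13.3% and 9.29% of promoters held over the same 123 bases. None of these 4 strings was in the 126 bases of Col6a1. CCAAT was in none of the stretches, against 33.8%, 16.6% and 16.9% of promoters over the windows of Col3a1, Col1a2 and Col6a1, and GGGCGG, absent from the Col3a1 stretch, was in 32.7% over that window. The matches describe letters and not binding sites.

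Levels are given as CPM, the counts of a gene relative to the total of its library after scaling between libraries. The libraries held 9303153 to 32994092 counts each (median 24722229), and 3 counts, used here as a detection floor, came to 0.0654 to 0.362 CPM. Intervals and floors cover counting error only. Mitochondrial genes took 0.511 to 4.35% of counts. Summed levels of 9 macrophage markers ran from 8844 to 16440 CPM in macrophage libraries and from 4702 to 7843 CPM in monocyte libraries, and those of 7 monocyte markers from 689.6 to 3190 CPM and from 5543 to 16480 CPM. Between the cell types at days 2, 14 and 28, 2, 4 and 2 of the 9 macrophage markers were called higher in macrophages (1.64%, 5.34% and 1.49% of all genes) and 2, 0 and 0 lower (1.78%, 4.02% and 1.03%). The 2 lower at day 2, named after the values were seen, were Ptprc (-1.26 ± 0.27, adjusted p = 0.011) and Cx3cr1 (-1.51 ± 0.37, 0.025), the gene of the sort gate. Of the monocyte markers, 5 of 7 were called lower at each day. Ly6c2, a gene for the sorted surface protein with a close paralog, was at 5.49 to 236 CPM in macrophages and 836 to 3590 CPM in monocytes. Over genes tested whose mean reached 10 CPM, the Spearman correlation of a library's deviation with exon length was -0.388 to -0.293 in day 2 macrophages, -0.419 in day 14 macrophage replicate C and -0.306 to 0.378 over all other libraries. The part of this trend in the levels below was not tested.

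The fibrillar collagen genes were close to absent from control monocytes, present in control macrophages, low in both cell types at day 2, and highest on average in day 14 and day 28 monocytes. Col3a1 (ENSMUSG00000026043, chr1:45311538-45349706), the chain of type III collagen, was at 0.0436, 0.0531 and 0.071 CPM in the control monocytes A, B and C and at 74.3 and 63.9 CPM in the control macrophages A and B. It was at 32.6, 12.3 and 1.77 CPM in day 2 monocytes, 293, 231 and 126 CPM at day 14 and 85.6, 213 and 145 CPM at day 28. In macrophages it was at 16.6, 0.37 and 1.45 CPM at day 2, 23.3, 20.6 and 3.01 CPM at day 14 and 12.6, 47.8 and 5.85 CPM at day 28. Every day 14 and day 28 monocyte library therefore lay above every macrophage library, controls included. At day 2 replicate A was the highest of its group in both cell types.

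Col1a1 (ENSMUSG00000001506, chr11:94936224-94953042) and Col1a2 (ENSMUSG00000029661, chr6:4504814-4541544) encode the chains of type I collagen, the main fibril of skin and scar. Col1a1 had no count in any control monocyte library, was at 22.6 and 20.3 CPM in control macrophages, and was at 53.5, 41.2 and 33.1 CPM in day 14 monocytes against 2.85, 4.15 and 1.26 CPM in day 14 macrophages. Col1a2 had 1 count over the 3 control monocyte libraries, was at 44.4 and 41.0 CPM in control macrophages, and was at 126, 121 and 61.2 CPM in day 14 monocytes against 9.79, 5.12 and 2.33 CPM in day 14 macrophages. The day 14 groups did not overlap for either chain. At day 28 Col1a1 was at 12.2, 45.0 and 16.9 CPM in monocytes and 2.89, 15.2 and 1.93 CPM in macrophages, which overlap through macrophage replicate B. Col1a2 was at 37.9, 80.7 and 26.8 CPM in monocytes and 12.4, 15.3 and 4.37 CPM in macrophages at that day, with no overlap.

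Col6a1 (ENSMUSG00000001119, chr10:76708792-76726168, minus strand), a chain of the beaded filaments of type VI collagen, was the lowest of the collagens here. It had no count in control monocytes, was at 4.31 and 2.31 CPM in control macrophages, and was at 4.98, 9.54 and 2.55 CPM in day 14 monocytes. At day 28 macrophage replicate B, at 8.12 CPM, was the highest of both cell types and monocyte replicate C, at 0.0492 CPM, was under the floor. The day 28 groups overlapped.

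The proteoglycans followed the fibrillar collagens. Dcn (ENSMUSG00000019929, chr10:97479609-97518143) had 3 counts over the control monocytes, was at 23.8 and 47.0 CPM in control macrophages, and was at 40.0, 15.8 and 2.58 CPM in monocytes at day 2, 267, 215 and 118 CPM at day 14 and 120, 161 and 26.9 CPM at day 28. Macrophages held 6.16, 0.288 and 1.57 CPM at day 2, 16.4, 16.2 and 5.56 CPM at day 14 and 10.8, 11.1 and 3.54 CPM at day 28. Dcn thus separated the cell types with no overlap at days 14 and 28. Lum (ENSMUSG00000036446, chr10:97565128-97572703), which lies next to Dcn on chromosome 10, had no count in control monocytes and 1 count over the 3 day 2 macrophage libraries. Lum was at 16.2, 2.45 and 0 CPM in day 2 monocytes, 29.1, 29.6 and 18.4 CPM at day 14 and 10.4, 12.1 and 8.31 CPM at day 28, so at day 2 a single library holds most of its signal.

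Sparc (ENSMUSG00000018593, chr11:55394500-55423183, minus strand) was the member with the highest level per length among those scarce in control monocytes. It was at 0.109, 0.0531 and 0.876 CPM in control monocytes and 22.2, 25.1 and 6.35 CPM at day 2, 348, 263 and 256 CPM at day 14 and 107, 152 and 49.9 CPM at day 28. In macrophages it was at 23.6 and 82.3 CPM in controls, 19.3, 4.45 and 2.78 CPM at day 2, 20.8, 25.5 and 10.6 CPM at day 14 and 20.9, 18.1 and 14.3 CPM at day 28. The monocyte libraries of days 14 and 28 lay above all implant macrophage libraries. Mfap5 (ENSMUSG00000030116, chr6:122505845-122529290) was at 0.0654, 0 and 0.0473 CPM in control monocytes, 3.70, 0.834 and 0.669 CPM at day 2, 76.7, 48.7 and 32.3 CPM at day 14 and 26.1, 22.1 and 6.79 CPM at day 28. No macrophage library, controls included, exceeded 4.0 CPM of Mfap5.

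**Figure D1:**
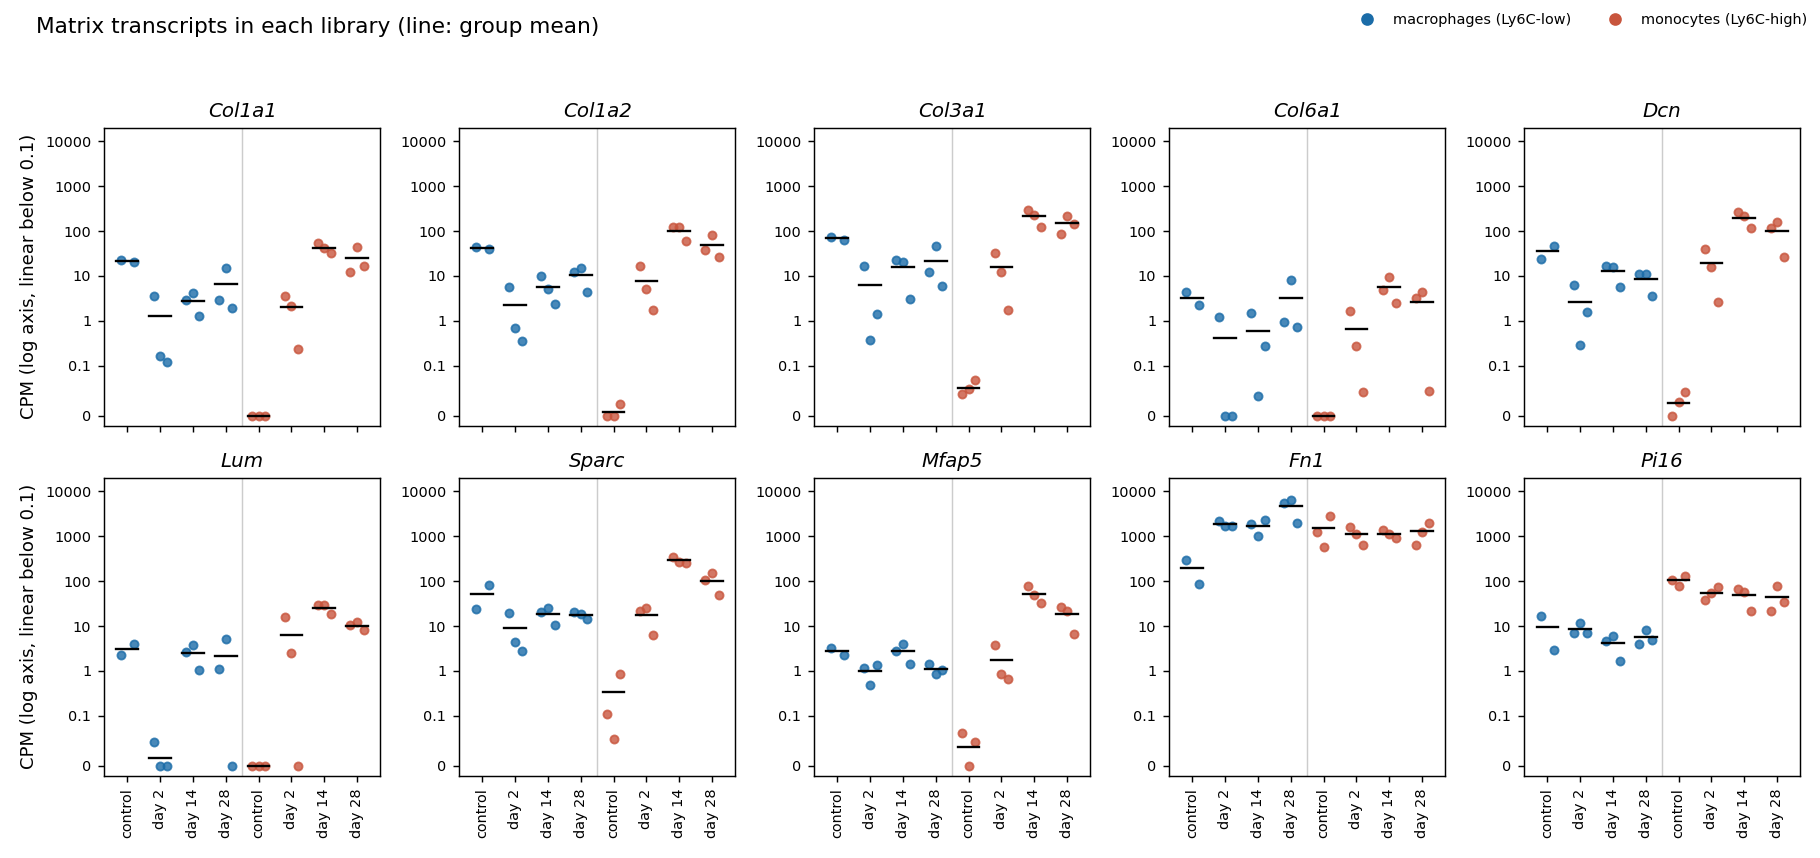
CPM (log axis, linear below 0.1) of each of the 10 genes in each library, by group, with macrophages in blue, monocytes in red and a line at the group mean. For 8 of the genes the control monocytes lie at or near 0 and the day 14 monocytes have the highest mean, while Fn1 lies between 84.3 and 6538 CPM in every library and Pi16 is above 20 CPM in every monocyte library.

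Fn1 (ENSMUSG00000026193, chr1:71585520-71653200, minus strand) did not share this pattern. It was at 1268, 568.1 and 2768 CPM in control monocytes, where the 8 genes above were nearly absent, and at 302.7 and 84.3 CPM in control macrophages, where those 8 were present. In macrophages it was at 2195, 1659 and 1660 CPM at day 2, 1868, 1002 and 2288 CPM at day 14 and 5403, 6538 and 1934 CPM at day 28, and each of these 9 libraries lay above both controls. In monocytes it was at 1641, 1126 and 623.7 CPM at day 2, 1364, 1145 and 930.9 CPM at day 14 and 639.9, 1241 and 1956 CPM at day 28, within the range of the control monocytes. Per kilobase of exon, its mean was 98.1 CPM in day 14 monocytes, against 76.3 CPM for Sparc, 34.3 CPM for Dcn and 22.1 CPM for Col3a1 in the same libraries.

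Pi16 (ENSMUSG00000024011, chr17:29317680-29330593), best known as a marker of a fibroblast population found in many tissues, separated from the matrix genes in another way. Its group mean was highest in control monocytes, at 105, 77.1 and 131 CPM, where Col1a1, Col6a1 and Lum had no count. It was at 38.8, 54.2 and 73.3 CPM in monocytes at day 2, 65.9, 56.9 and 21.3 CPM at day 14 and 21.2, 78.4 and 33.6 CPM at day 28, and between 1.66 and 16.3 CPM in all macrophage libraries. The gene with the most similar pattern to Pi16 over the 23 libraries, looked up after its values were seen, was Cd177 (Pearson r = 0.95 of log2(CPM + 1)), a surface protein of neutrophils. Cd177 was at a mean of 576, 274, 132 and 145 CPM in monocytes of controls and days 2, 14 and 28 and of 1.87 to 10.5 CPM in the macrophage groups. A list of 11 neutrophil genes, also added after the values were seen, summed to 2470 to 4130 CPM in control monocytes, 2220 to 5200 CPM in day 2 monocytes, 3140 to 6800 CPM in day 2 macrophages and at most 833 CPM elsewhere. The 5 genes of it for primary and secondary granule proteins (Ltf, Ngp, Camp, Elane and Mpo) summed to 1410 to 2240 CPM in control monocytes, 6.92 to 19.9 CPM in day 2 monocytes, 4.12 to 24.0 CPM in day 2 macrophages and at most 3.60 CPM in every other library. Other genes of the list, named after the values were seen, were lower in control monocytes than at day 2. Retnlg and Cxcr2 were at means of 0.911 and 1.1 CPM in control monocytes. They were at 208 and 38.5 CPM in day 2 monocytes and 274 and 55.5 CPM in day 2 macrophages. S100a8 was at means of 603, 1500 and 2310 CPM in these 3 groups and S100a9 at 525, 1240 and 1950 CPM. The part of neutrophils in the Pi16 level was not tested.

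The contrasts with controls, given as descriptions, put sizes on these patterns. Ratios between groups, here and below, are of counts pooled over each group and scaled by its pooled library sizes. Control macrophages against control monocytes were at least 881-fold higher for Col1a1, 141-fold for Lum and 123-fold for Col6a1. Each bound was set against 3 counts over the control monocyte group. The ratio was 5290 (95% counting interval 948 to 209000) for Col1a2 and 1670 (569 to 8080) for Dcn. The fitted log2 fold change was 10.14 ± 1.59 (SE) for Col3a1, 7.23 ± 0.97 for Sparc and 5.96 ± 0.88 for Mfap5, and it was -2.99 ± 0.70 for Fn1 and -3.45 ± 0.75 for Pi16. Of all 16260 genes, 12.5% were called in this comparison (edgeR quasi-likelihood test, Benjamini-Hochberg adjusted p under 0.05), and since the choice of genes used it nothing is read from their count.

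Day 14 monocytes against control monocytes, where 37.7% of all genes were called, were at least 1740-fold higher for Col1a1, 1050-fold for Lum and 235-fold for Col6a1. Ratios were 12500 (2240 to 493000) for Col1a2 and 8030 (2750 to 38900) for Dcn, and log2 fold changes were 11.79 ± 1.63 for Col3a1, 10.21 ± 0.94 for Mfap5 and 9.68 ± 1.04 for Sparc. Fn1 differed by -0.42 ± 0.56 and Pi16 by -1.12 ± 0.58. Without control monocyte replicate C, Sparc was at 11.58 ± 1.20 and Fn1 at 0.23 ± 0.57. Day 28 monocytes gave 11.24 ± 1.61 for Col3a1, 8.69 ± 0.90 for Mfap5, 8.19 ± 0.99 for Sparc and -0.26 ± 0.55 for Fn1 (18.2% of all genes called). At day 2 the values were 7.99 ± 1.48 for Col3a1, 5.25 ± 0.85 for Mfap5, 5.66 ± 0.90 for Sparc and -0.44 ± 0.56 for Fn1 (27.0% of all genes called). The control monocytes also differed from implant monocytes in the 5 granule genes, at 1410 to 2240 CPM against at most 19.9 CPM. The part of this in the values set against control monocytes, here and below, was not tested.

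Macrophages differed from their controls the other way. At day 2, 9 of the 10 genes had a negative log2 fold change, with -3.98 ± 1.11 for Col1a1, -4.16 ± 0.92 for Col1a2, -3.46 ± 1.13 for Col3a1, -3.70 ± 0.98 for Dcn and -2.57 ± 0.80 for Sparc. Without day 2 macrophage replicate A, the highest of its group for these 5, they were -7.18, -6.28, -6.52, -5.56 and -3.93, and Sparc was at -1.43 without control macrophage replicate B and -3.28 without replicate A. Pi16, at -0.16 ± 0.65, turned positive without control macrophage replicate A. Lum had 1 count at day 2 against 164 in the controls, a ratio of 181 (32.0 to 7190). Fn1 alone was higher, by 3.25 ± 0.71 at day 2, 3.15 ± 0.71 at day 14 and 4.58 ± 0.77 at day 28. The 2 control libraries differ in Fn1, and these values were 4.37, 4.33 and 5.79 without control replicate A and 2.58, 2.53 and 4.0 without replicate B. By day 28 the differences were -1.68 ± 1.02 for Col1a1, -1.99 ± 0.85 for Col1a2 and -1.64 ± 1.08 for Col3a1, and without day 28 macrophage replicate B those of Col1a1 and Col3a1 were -3.16 and -2.91. The median over the 10 genes was -3.18, -1.48 and -1.45 at days 2, 14 and 28, against -0.16, -0.08 and -0.04 over all genes, of which 17.2%, 8.21% and 10.6% were called.

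Comparisons among implant libraries that use neither a control nor the day 2 macrophages were tested. Where groups are said not to overlap, here and elsewhere, this describes 2 or 3 libraries each. The share of all genes without overlap was not counted. At day 14, 7 of the 10 genes were called lower in macrophages than in monocytes and none higher, where 4.02% of all genes were called lower, 5.34% higher and 9.37% either way. The 7 were Mfap5 (log2 fold change -4.25 ± 0.68 SE, adjusted p = 0.001), Sparc (-3.93 ± 0.79, 0.0054), Col1a2 (-4.16 ± 0.87, 0.0064), Dcn (-3.97 ± 0.93, 0.012), Col1a1 (-3.95 ± 1.05, 0.025), Col3a1 (-3.79 ± 1.09, 0.034) and Pi16 (-3.53 ± 0.64, 0.0026). For each of the 7, every day 14 monocyte library was above every day 14 macrophage library. Col6a1 (-3.22 ± 1.61, adjusted p = 0.20) and Lum (-3.37 ± 1.31, 0.11) had the same sign with no overlap between the groups and did not pass, and Fn1 was at 0.58 ± 0.56 (adjusted p = 0.52). The median over the 10 genes was -3.86, against 0 over all genes. Leaving out any 1 of the 6 libraries ended the call of Col3a1, with adjusted p from 0.057 to 0.091, and leaving out any but monocyte replicate B did so for Col1a1, with adjusted p from 0.052 to 0.075.

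At day 28, 3 of the 10 genes were called lower in macrophages, where 1.03% of all genes were, and 2.52% either way. These were Mfap5 (-4.04 ± 0.68, adjusted p = 0.0045), Pi16 (-2.97 ± 0.62, 0.016) and Dcn (-3.59 ± 0.92, 0.040). Sparc (-2.54 ± 0.75, adjusted p = 0.074), Col3a1 (-2.74 ± 1.04, 0.17), Col1a2 (-2.18 ± 0.80, 0.15) and Lum (-2.28 ± 1.25, 0.34) did not pass. Their groups did not overlap, from which nothing is read, as the share of all genes without overlap was not counted. Fn1 was at 1.85 ± 0.57 (adjusted p = 0.088) in the other direction and Col6a1 at 0.32 ± 1.47 (0.95). Without macrophage replicate C, the lowest of its group for Fn1, Fn1 was called higher in macrophages (2.24 ± 0.57, adjusted p = 0.022), as it was by DESeq2 (1.87 ± 0.56, adjusted p = 0.015). Mfap5 kept its call with any library left out. Dcn lost its call without any of macrophage replicates A, B or C or monocyte replicates A or B, and Pi16 without macrophage replicate A or monocyte replicate B. None was called when these groups were fitted without the others.

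The day 2 comparison of the cell types uses the day 2 macrophages, so it is described with no test. There 9 of the 10 genes had a negative log2 fold change in macrophages against monocytes and Fn1 a positive one, at 0.70 ± 0.56 (3.42% of all genes called). Pi16 was at -2.70 ± 0.61 with no overlap between the groups, Dcn at -2.83 ± 0.91, Col1a2 at -1.70 ± 0.82, Col3a1 at -1.30 ± 1.01 and Sparc at -1.0 ± 0.72. For Lum the counts were 250 in monocytes and 1 in macrophages, a ratio of 260 (46.2 to 10300), yet the groups overlap because day 2 monocyte replicate C had no Lum count. Single libraries moved these values. Without macrophage replicate A they were -4.63 ± 1.14 for Dcn, -3.77 ± 0.94 for Col1a2 and -4.31 ± 1.20 for Col3a1, and without monocyte replicate A they were -1.75 ± 0.90, -0.54 ± 0.82 and -0.16 ± 1.08.

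Between days 2 and 14, 3 matrix genes rose in monocytes. Mfap5 (4.96 ± 0.71, adjusted p = 0.0047), Sparc (4.02 ± 0.80, 0.022) and Col1a2 (3.73 ± 0.85, 0.044) were called higher at day 14, 3 of 10 against 0.486% of all genes called higher and 0.726% either way. Col1a1 (4.43 ± 1.08, adjusted p = 0.068), Dcn (3.37 ± 0.91, 0.099) and Col3a1 (3.81 ± 1.09, 0.12) did not pass. In all 8 genes other than Fn1 and Pi16 every day 14 library was above every day 2 library, a separation whose share over all genes was not counted. Fn1 was at 0.02 ± 0.55 and Pi16 at -0.21 ± 0.57. No gene of the 10 was called without monocyte day 2 replicate C, the library of its group with the lowest level of 9 of the 10, and 1 was called without monocyte day 2 replicate B or day 14 replicate A or C, while DESeq2 called 6.

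No other change over time that was tested passed for these genes. Day 28 was not compared with day 2 in either cell type. In monocytes the 8 genes other than Fn1 and Pi16 summed to 13.42 to 136.5 CPM at day 2 and 280.7 to 690.2 CPM at day 28. No member was called in monocytes between days 14 and 28 by the edgeR test, where 0.720% of all genes were, or by DESeq2, and 1 of 10 had an unadjusted p under 0.05. The largest of these differences were -1.52 ± 0.61 for Mfap5 (adjusted p = 0.17) and -1.49 ± 0.72 for Sparc (0.26). The groups did not overlap for either gene, from which nothing is read. In macrophages no member was called between days 14 and 28 by edgeR (0.00615% of all genes) or DESeq2, and 1 of 10 had an unadjusted p under 0.05. Fn1 was at 1.43 ± 0.57 there (adjusted p = 0.57). Between days 2 and 14 macrophages, described with no test, had positive values for 8 of the 10 genes, with Dcn at 2.22 ± 0.89, Mfap5 at 1.51 ± 0.66 and Pi16 at -1.04 ± 0.59 (0.474% of all genes called).

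**Figure D2:**
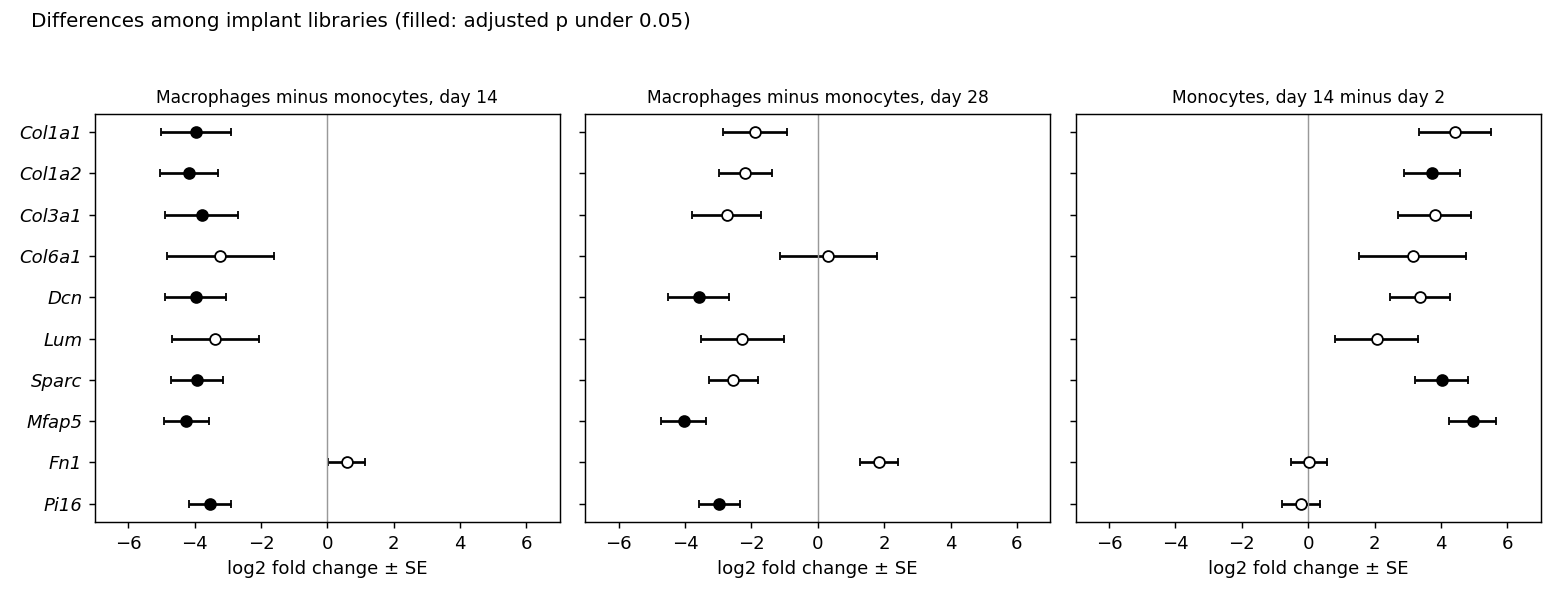
Log2 fold change ± SE of the 10 genes in 3 comparisons among implant libraries, with filled points for adjusted p under 0.05. The day 14 panel has 7 filled points between -4.25 and -3.53, and Fn1 lies at or right of 0 in all 3 panels.

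The make-up of the 8 genes other than Fn1 and Pi16 was compared per exon length. Per kilobase of exon, Sparc made up a mean of 34.6 to 67.6% of their summed level by group, Col3a1 9.82 to 21.8%, Dcn 7.36 to 21.4% and Col1a1 0 to 9.62%. The log2 ratio of Dcn to Col3a1 per kilobase was 0.64 ± 0.022 (SD, n = 3) in day 14 monocytes, 1.15 ± 0.13 in day 2 monocytes and -0.036 ± 1.5 in day 28 monocytes, so the ratio was tight at day 14 and scattered at day 28. The log2 ratio of Col1a2 to Col1a1 per kilobase had group means from 0.072 to 1.20. Control monocytes stand apart, with a Sparc share of 67.6% on 5 to 45 counts per library for the 8 genes together.

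**Figure D3:**
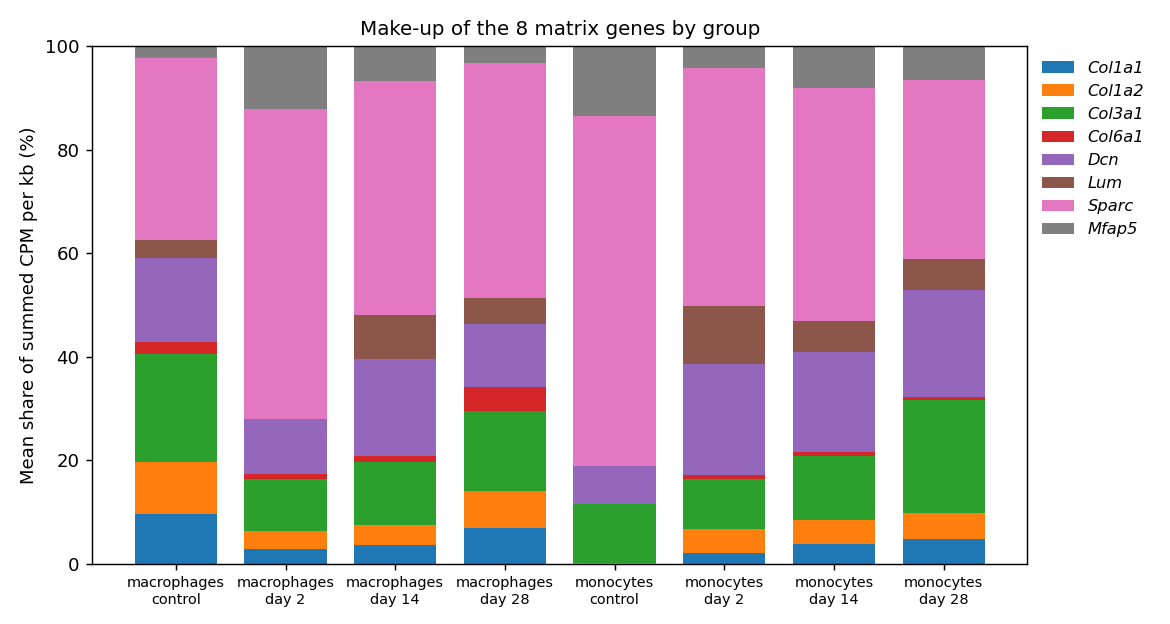
Mean share (%) of each of 8 matrix genes in their summed CPM per kilobase, by group (stacked bars). Sparc is the largest share in every group, from 34.6 to 67.6%, and the control monocyte bar rests on 5 to 45 counts per library.

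Across the 23 libraries, levels (log2(CPM + 1)) of the 8 genes were positively correlated, with Pearson r from 0.68 (Col6a1 with Mfap5) to 0.98 (Col1a2 with Col3a1). Fn1 correlated with them at -0.22 to -0.08 and Pi16 at -0.08 to 0.18. The libraries share cell type, time and depth, so these values are a description. Within the 11 macrophage libraries Mfap5 correlated less with the other 7, at 0.09 to 0.74, than within the 12 monocyte libraries, at 0.91 to 0.97. The genes outside the 10 with the most similar pattern to Col3a1 were Serpinh1 (r = 0.958), the chaperone that folds procollagen, Serping1 (0.897), Fstl1 (0.886), Dpt (0.876), a matrix protein that binds decorin, the gelatinase Mmp2 (0.872) and S100a16 (0.868). For Sparc they were Serpinh1 (0.922), Serping1 (0.922), Dpt (0.896), Ccdc80 (0.887), Fstl1 (0.877) and Serpinf1 (0.871). For Fn1 they were Ywhag (0.895), Pgd (0.869), Plec (0.864), Tmem43 (0.833), Yipf6 (0.832) and the leukocyte integrin chain Itgb2 (0.82), and none of these was on the other lists of likeness.

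The rest of the matrix programme was counted on lists that hold none of the 10 genes, with the edgeR test over all genes. These and the marker lists below were chosen with earlier results of these data known. Their counts and p-values against controls are therefore read as a description. Of 13 tested other collagen chains, 8 were higher and none lower in monocytes at day 14 against control, where 19.8% of all genes were called higher. Among the 4 most abundant, Col5a1 (6.28 ± 1.42, adjusted p = 0.0018) and Col14a1 (7.07 ± 1.65, 0.0023), which take part in fibril assembly, and Col4a1 (2.41 ± 0.74, 0.015), of basement membranes, rose. Col5a2, with no count in control monocytes, rose too (adjusted p = 0.0016) and was at a mean of 5.80 CPM at day 14. At day 28, 8 of 13 were higher (11.7% of all genes), but 2 without control monocyte replicate A or C. At day 2, 2 of 13 were higher (15.5% of all genes), and none without control monocyte replicate A or C or day 2 monocyte replicate A.

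Of 30 other matrix proteoglycans and glycoproteins, 26 were higher in day 14 monocytes against control, 20 at day 28 and 13 at day 2. None was lower, where 19.8%, 11.7% and 15.5% of all genes were higher and 17.9%, 6.52% and 11.5% lower. Of the 30, 13 and 7 were higher at days 28 and 2 without control monocyte replicate A. Thbs1, thrombospondin 1, the most abundant of them, rose from a mean of 13.5 to 3483 CPM at day 14 (8.01 ± 0.87, adjusted p = 7.4e-07) and was also called higher in macrophages at day 2 (5.77 ± 0.94, 0.00029). Ecm1 rose by 4.19 ± 0.28 in day 14 monocytes (adjusted p = 9.4e-10) and Vcan, the large proteoglycan versican, by 2.72 ± 0.54 (0.0006), while Emilin1 was at -1.31 ± 0.52 (0.053). In macrophages Thbs1, Ecm1 and Vcan were the 3 genes of this list called higher than in controls at each of days 2, 14 and 28 (10.1%, 5.51% and 6.57% of all genes called higher). As many or more were lower at days 2 and 28, with 4 at day 2 (Ogn, Postn, Spon1 and Hspg2), none at day 14 and 3 at day 28 (Fbn1, Fbln5 and Efemp2), named after the values were seen, where 7.10%, 2.70% and 3.99% of all genes were lower. With 1 library left out, 1 or 2 were lower at day 2 and 0 to 2 at day 28. The median log2 fold change of the 30 was -2.71, -1.02 and -1.09, against -0.16, -0.08 and -0.04 over all genes. Between the cell types at day 14, 7 of 30 were lower in macrophages (4.02% of all genes), Thbs1 (-2.20 ± 0.66, adjusted p = 0.042) and Vcan (-1.67 ± 0.52, 0.048) among them. With 1 library left out the count was 0 to 3, and it was 0 without macrophage replicate B or monocyte replicate A.

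Of 23 collagen processing enzymes and chaperones, 12 were higher in monocytes at day 14 and 12 at day 28 against control, with 1 and 0 lower, where 19.8% and 11.7% of all genes were higher and 17.9% and 6.52% lower. P4ha1, a catalytic subunit of prolyl 4-hydroxylase, rose by 2.74 ± 0.29 at day 14 (adjusted p = 5.6e-07) and its partner P4hb by 1.05 ± 0.39 (0.041), while Plod1 (0.74 ± 0.36, adjusted p = 0.11) and Plod3 (-0.64 ± 0.38, 0.19) did not pass. In macrophages P4ha1 rose as well, by 2.06 ± 0.33 at day 2 (adjusted p = 0.00022), where Col1a1, Col1a2 and Col3a1 were below their controls. Of 14 matrix receptors, 8 were higher in macrophages at day 2, 7 at day 14 and 8 at day 28 against control (10.1%, 5.51% and 6.57% of all genes called higher). There 1, 0 and 0 were lower (7.10%, 2.70% and 3.99% of all genes called lower). In monocytes 7, 7 and 5 were higher (15.5%, 19.8% and 11.7% of all genes called higher), with 2, 2 and 1 lower (11.5%, 17.9% and 6.52% of all genes called lower). Cd44, the hyaluronan receptor, rose by 3.23 ± 0.36 in day 2 macrophages (adjusted p = 4.6e-06) and Sdc4, a heparan sulfate proteoglycan, by 7.97 ± 0.40 in day 14 monocytes (2.4e-11), while Itgb1, the shared chain of collagen and fibronectin integrins, fell by 1.81 there (SE 0.43, adjusted p = 0.0026). The macrophage count was 4 at day 2 without either control macrophage library and 4 at day 14 without control macrophage replicate B.

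Fibroblast cell markers that are not matrix genes were followed as a list of 22, and single markers differed in their pattern. In control monocytes 14 of the 22 had no count, Pdgfra among them, while Pdgfrb, which pericytes also express, had 488 counts. Tcf21 had no count in any library. The summed level of the 22 was 2.58 to 7.36 CPM in control monocytes, 4.06 to 10.5 CPM at day 2, 18.9 to 64.9 CPM at day 14 and 26.2 to 80.3 CPM at day 28, and in macrophages 38.5 to 42.1 CPM in controls, 1.56 to 6.28 CPM at day 2, 6.73 to 12.6 CPM at day 14 and 5.37 to 12.9 CPM at day 28. Pdgfra, the most widely used of these markers, had 19, 26, 27 and 33 counts in the macrophage groups of controls and days 2, 14 and 28, and 0, 39, 45 and 23 counts in the monocyte groups, so it did not follow the day 14 level of the collagens. Most other markers had more counts in day 14 than in day 2 monocytes, and those given here were named after the values were seen. Islr, Clec3b, Sfrp2 and Sfrp4 had 0, 4, 5 and 10 counts at day 2 and 245, 157, 184 and 332 at day 14. Day 14 macrophages had 1, 22, 55 and 55 counts of these genes. Meox2, with 33 counts in day 2 monocytes and 10 in day 14 monocytes, was the only one of the 22 with fewer at day 14. Thy1 had 40 and 41 counts in these groups, and Twist2 and Tcf21 had none in either.

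Of the 19 that could be tested, 10 were higher in monocytes at day 14 against control and 11 at day 28 (19.8% and 11.7% of all genes), with none lower, but 7 at day 28 without control monocyte replicate A or C. At day 2, 3 were higher, near the 15.5% of all genes, but 1 without control monocyte replicate A or C, and 1 was lower, where 11.5% of all genes were. Between control macrophages and control monocytes 8 of 19 were higher in macrophages (7.61% of all genes), but 3 or 4 with any 1 library left out. Cd248, a stromal cell surface protein, had no count in control monocytes and was at 1.20 to 3.40 CPM at day 14 and 3.79 to 21.4 CPM at day 28. Cxcl12, a chemokine of stromal cells, made up 24.8 and 27.8 CPM of the sum in control macrophages and 0.0823 to 0.900 CPM in day 2 macrophages. The log2 fold change was -5.57 ± 1.26, given with no test for the same reason. Between the cell types at day 14, 1 of 19 was lower in macrophages (4.02% of all genes), beside the 7 of 10 for the genes above, and none without macrophage replicate B or monocyte replicate A. The median log2 fold change there was -3.01 over the 19 and -3.86 over the 10 genes, with 5 and 8 at an unadjusted p under 0.05. Between days 2 and 14 in monocytes none of the 19 was called by edgeR, 10 had an unadjusted p under 0.05 and DESeq2 called 5. The median was 4.85 over the 19 and 3.55 over the 10 genes.

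Set against each other per library, the 8 genes summed to 1199, 959.5 and 647.0 CPM in day 14 monocytes, where the 22 markers summed to 64.9, 43.4 and 18.9 CPM. In day 28 monocytes the pairs were 403 and 44.4, 690.2 and 80.3, and 281 and 26.2 CPM, and in control macrophages 198 and 42.1, and 263 and 38.5 CPM. The marker sums of day 28 and day 14 monocytes overlapped, and so did the matrix sums. The ratio of the 8 genes to all 22 markers was 18.5 to 34.2 at day 14, 8.60 to 10.7 at day 28 and 3.31 to 13.0 at day 2 in monocytes, 0.0515 to 0.145 in control monocytes, 4.72 and 6.82 in control macrophages, and 1.21 to 9.48 in implant macrophages. Leaving out Cxcl12, a choice made after the values were seen, the ratio of the 8 genes to the 21 other markers was 23.5 to 42.4 at day 14, 9.60 to 13.6 at day 28 and 12.4 to 23.1 at day 2 in monocytes, 0.0515 to 0.154 in control monocytes, 13.9 and 19.1 in control macrophages, and 1.37 to 21.2 in implant macrophages. Control macrophages thus lay below day 28 monocytes with Cxcl12 and above them without it, while day 14 monocytes lay above both either way. In control monocytes the marker sum rests largely on Pdgfrb, with 488 counts, and the next highest markers, Cdh11 and Fap, had 26 each. No ratio without Pdgfrb was computed. The part of fibroblast RNA carried over into the sorted libraries in the levels of the matrix genes was not tested.

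**Figure D4:**
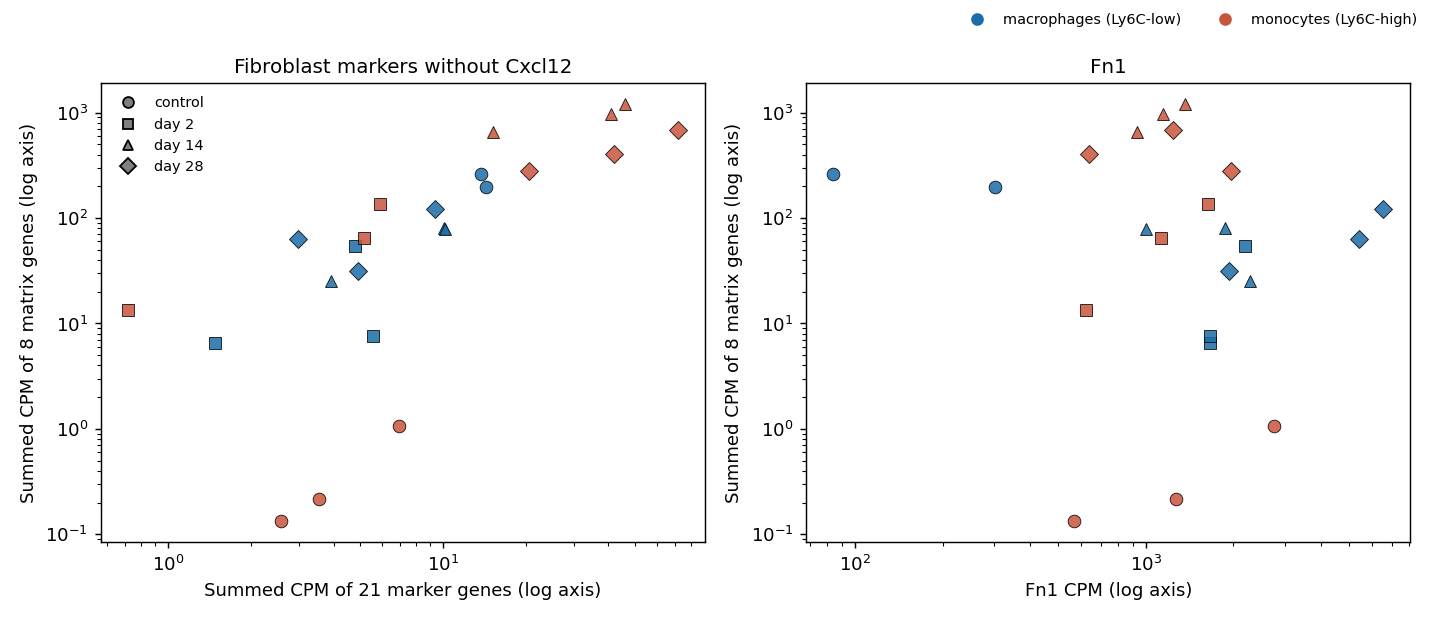
Summed CPM of the 8 matrix genes in each of 23 libraries against the summed CPM of 21 fibroblast markers (left) and against Fn1 CPM (right), all on log axes, with colour for cell type and shape for time. The 8 libraries with marker sums of 13.8 CPM or more hold matrix sums of 198 to 1199 CPM, and the 3 control monocyte libraries lie at 0.133 to 1.07 CPM with marker sums of 2.58 to 6.94 CPM and Fn1 at 568.1 to 2768 CPM. In the control monocyte group Pdgfrb had 488 counts, and no other marker had more than 26.

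Markers of other tissue cells were counted in the same way. Of 9 tested pericyte and smooth muscle markers 2 were higher in day 14 monocytes against control and 1 at day 28, and of 10 endothelial markers 3 and 3, where 19.8% and 11.7% of all genes were higher, so the pericyte counts are near the background. Of 6 tested skeletal muscle markers 2 were higher at each of these days, with none at day 28 without day 28 monocyte replicate C and 4 without replicate B. In day 2 macrophages 3 were lower against control, where 7.10% of all genes were, with 1 when any day 2 macrophage library was left out. The sum there was 2.05 to 5.68 CPM against 26.1 and 34.7 CPM in control macrophages. At day 14 the pericyte count was 1 without control monocyte replicate B or C or day 14 monocyte replicate C, and the muscle count was 1 without control monocyte replicate C. At day 28 the pericyte count was 2 without control monocyte replicate A. Of 4 tested adipocyte markers 1 was higher and 1 lower in monocytes at day 14, where 19.8% of all genes were higher and 17.9% lower. The lower one was not called without control monocyte replicate A or day 14 monocyte replicate A or B. Of 3 tested epithelial markers none was called in these 3 comparisons, with none at an unadjusted p under 0.05 and none by DESeq2. Ptprc, the pan-leukocyte surface protein CD45, was at group means of 390.6 to 1627 CPM, and the sum of the 22 fibroblast markers was at most 80.3 CPM.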

How the data were processed

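RNA of sorted cells was amplified with SMART-Seq v4, made into libraries with Nextera XT and sequenced as single reads, per the labels' protocols. Base calls were made with bcl2fastq, reads were aligned to GRCm38 with STAR 2.4.1d and the deposited values are raw counts per gene from featureCounts (Subread 1.5.1), per the submitters' processing notes. No source used here gives the release of the annotation, whether counting used strand, or how reads shared by near-identical copies were treated, so Ly6c1 and Ly6c2 are uncertain.

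The counts of 23 libraries in 8 groups were scaled by TMM and filtered by group with filterByExpr, which left 16260 of 47729 gene entries. They were fitted in 1 edgeR quasi-likelihood model (edgeR 4.0.16, limma 3.58.1, R 4.3.3, robust, prior count 0.125), with Benjamini-Hochberg adjustment over all genes tested and a threshold of 0.05. Standard errors were taken as the log2 fold change over the root of its F. CPM use the scaled library sizes. No pair of libraries had identical counts. The steps were tested on simulated data. The 10 genes and all lists were chosen with earlier results of these data known. A test of the 10 genes had been planned for the comparisons with day 2 macrophages and for the difference of the change from control between the cell types, and none is given, because that choice rests on those values.

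The genes named are the 10, the 4 most abundant of each list with Pdgfra, Pdgfrb and Ptprc, and the 6 genes with the highest correlation with each of Col3a1, Sparc and Fn1. Others are said to be chosen after their values were seen, and Ly6c2 is one of the monocyte markers. The lists cover other collagen chains, other matrix proteoglycans and glycoproteins, collagen processing, matrix receptors, and markers of fibroblasts, pericytes and smooth muscle, endothelium, epithelium, adipocytes, skeletal muscle, macrophages and monocytes. The alternatives were RLE size factors, no filter on low counts, DESeq2 1.42.0, a fit of only the groups compared, the replicate letter as a block, and each library left out in turn. Promoter sequences are from RefSeq, trimmed to bases outside GENCODE exons.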

Additional observations from a re-analysis of the deposited data

Results flagged for a closer look

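For several of the 10 genes every macrophage library of a day lay below both macrophage controls while every monocyte library of that day lay above all 3 monocyte controls. This held for 7 genes at day 2, 5 at day 14 and 6 at day 28. The share of all genes for which it held was not counted, so nothing is read from these counts. The difference between the cell types was not tested, because the control libraries and the day 2 macrophages were among the values known when the genes were chosen. The change of mean CPM from control in macrophages minus that in monocytes was, at day 2, -22.2 for Col1a1, -48.2 for Col1a2, -78.4 for Col3a1, -3.56 for Col6a1, -52.1 for Dcn, -61.7 for Sparc and -3.48 for Mfap5. At day 14 it was -61.3 for Col1a1, -140 for Col1a2, -270 for Col3a1, -8.4 for Col6a1 and -223 for Dcn. At day 28 it was -39.5 for Col1a1, -80.4 for Col1a2, -195 for Col3a1, -129 for Dcn, -138 for Sparc and -20 for Mfap5. The macrophage and monocyte parts of the Col3a1 value were -62.9 and 15.5 CPM at day 2, -53.4 and 217 CPM at day 14 and -47 and 148 CPM at day 28. No group had the 4 samples that a test for a single outlying library needs.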

How the results depend on the processing

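No log2 fold change of the 10 genes that was called in any of the 5 tested comparisons among implant libraries changed its sign under any alternative, and RLE size factors changed no call of a member. Counts of members called, and of all genes called, are given below for the alternatives that moved them. The cause of these moves was not tested. Without a filter on low counts, members and all genes called were 9 and 2494 between the cell types at day 14 (7 and 1523 in the main analysis), 9 and 1285 at day 28 (3 and 409), 1 and 252 in macrophages from day 14 to 28 (0 and 1), and 8 and 741 (3 and 118) and 1 and 1523 (0 and 117) in monocytes. With only the groups compared they were 8 and 1297 and 0 and 1 between the cell types at days 14 and 28, 0 and 0 in macrophages, and 3 and 72 and 0 and 230 in monocytes. With DESeq2 they were 7 and 2896 and 5 and 1199, then 0 and 40, then 6 and 586 and 0 and 1513. In the comparisons that use day 2 macrophages, all genes called were 556 between the cell types and 77 from day 2 to 14, and 1033 and 682 with no filter, 808 and 145 with only the groups compared, and 1176 and 334 with DESeq2.

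With 1 replicate left out, members called ranged from 5 to 6 at day 14 and 1 to 3 at day 28 between the cell types, and from 0 to 3 in monocytes from day 2 to 14. All genes called ranged from 269 to 384, 635 to 1432 and 69 to 1323 between the cell types, 29 to 108 and 0 to 24 in macrophages, and 0 to 159 and 0 to 252 in monocytes. Where 1 control macrophage library was left, it was assumed to vary like the other groups.

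Whether the replicate letters pair libraries of the cell types was not settled. Same-letter libraries of both cell types had deviations correlated at -0.299 to 0.228 at days 2, 14 and 28 and at 0.417 and 0.532 in controls. Libraries of different letters were at -0.324 to 0.357 at those days and at -0.532 to 0.365 in controls. With 2 control macrophage libraries the deviations mirror each other, so each control value recurs with the opposite sign. Deviations from a mean of 2 or 3 libraries are tied to each other, so these values cannot show that pairing is absent. With the replicate letter as a block, members called in monocytes from day 2 to 14 were 5 against 3, with Col1a1 (4.87 ± 0.97, adjusted p = 0.034) and Dcn (3.80 ± 0.73, 0.025) gained, and Col1a2 was called between the cell types at day 28 (-2.33 ± 0.57, 0.044). All genes called fell from 1 to 0 in macrophages and from 117 to 2 in monocytes between days 14 and 28. Floors of 0.0654 to 0.362 CPM limit what can be said of Lum and Col6a1.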
